A study of Mus musculus with 12 samples.

Results

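The peaks described here lie in mouse genes of the splicing factors and RNA helicases: the Srsf, Hnrnp, Rbm, Ddx and Dhx families. Every peak of the deposited peak table whose gene symbols include a member of these families was taken. Rbm15, Rbm15b, Hnrnpa2b1 and Hnrnpc, which write or read m6A, were left out. The rule uses names only, and no measured value. It gave 431 peaks of 37118 in the table, in 106 gene symbols of 13060. The Srsf family held 25 peaks in 9 genes, the Hnrnp family 93 peaks in 18 genes and the Rbm family 141 peaks in 30 genes. The Ddx family held 120 peaks in 33 genes and the Dhx family 52 peaks in 16 genes. Of the 431 peaks, 48 also carried another gene symbol. All 5 peaks of Rbm46os, an opposite-strand transcript, were shared with Lrat, the enzyme by which hepatic stellate cells esterify vitamin A. Likewise, the only peak of Dhx58os was that of Dhx58. Reads of such pairs cannot be told apart here, because it is not given whether the counting used strand.

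The samples were livers of male wild-type (WT) C57BL/6 mice, 6 to 8 weeks old when housed for the study. Cadmium mice received 20 mg/kg/day CdCl2 by gavage and control mice 0 mg/kg/day, and both were sampled at day 90. The assay is MeRIP-seq, in which RNA fragments that carry N6-methyladenosine (m6A), the most common internal methyl mark of mRNA, are pulled down by antibody and sequenced. The table holds 3 cadmium and 3 control samples, from protocol groups of 6 animals, and the comparison asks how the signal of each peak differs with cadmium.

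SR proteins (Srsf) bind exonic enhancers and recruit the spliceosome to nearby splice sites, while hnRNP proteins (Hnrnp) coat nascent RNA and often oppose exon use. Rbm is a naming group of proteins with RNA recognition motifs, many of them alternative splicing regulators. DEAD-box (Ddx) and DEAH-box (Dhx) proteins use ATP to unwind or remodel RNA in splicing, ribosome assembly, export, translation and decay, and a few of them sense viral RNA. In liver, several of these proteins help to set the isoforms of metabolic enzymes, and the transcripts of SR and hnRNP genes are themselves heavily spliced and tightly autoregulated.

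Total counts over all peaks ran from 40174736 to 52338612 per sample, and the 431 peaks took 0.531% to 0.710% of them. A peak of these genes held between 256 and 45548 counts over the 6 samples, with a median of 2163, and all 431 entered the test. Values are counts per 1000000 counts (CPM) after TMM scaling, and changes are log2 ratios of cadmium over control from edgeR's quasi-likelihood test. A peak is called at a Benjamini-Hochberg adjusted p below 0.05 over all 37088 peaks tested. The replicates were labelled as separate samples, but it is not said that each is a different animal, so p-values measure the spread between these samples. The counts were read as immunoprecipitated RNA, which is an assumption, and input counts were not used. A difference in a peak therefore cannot be divided into RNA amount and methylation. In bulk liver, fewer cells of a type and less RNA per cell cannot be told apart either. The 10 hepatocyte marker genes all had peaks, whose summed level was 19568 to 22213 CPM in cadmium and 21592 to 23071 CPM in control samples, with Tat called lower at -1.20. Of the endothelial markers 6 of 7 had a peak, with 1 called higher (Lyve1), and their sum was 189 to 247 CPM in cadmium and 160 to 244 CPM in control samples. The 3 cholangiocyte genes with a peak summed to 18.7 to 66.7 CPM and 22.4 to 29.6 CPM, and the 2 red blood cell genes to 76.6 to 272 CPM and 86.6 to 156 CPM. Neutrophil markers had no peak.

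The peaks called by edgeR lay in a small set of genes. Peaks of Ddx21, a nucleolar helicase of ribosome production, and of Rbm47, a splicing and RNA-editing cofactor that is abundant in liver, fell. So did 1 peak of Rbm34. Peaks of Dhx58, a cytoplasmic sensor of viral RNA, and of Rbm43, Rbm20 and Rbm46os rose. No peak of the Srsf or Hnrnp families was called. In all, 11 of the 431 peaks were called, which is 2.55%, beside 6.27% of all peaks tested. Of these, 5 were higher in cadmium (3.55% of all peaks) and 6 were lower (2.72% of all peaks). They lay in 8 of the 106 symbols, and 9.4% of all symbols had a called peak. At an unadjusted edgeR p below 0.05 there were 58 peaks, or 13.5%, beside 21.8% of all peaks.

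In size, 4 of the 431 peaks, or 0.928%, reached a 2-fold difference in either direction, beside 4.44% of all peaks. The median log2 change was -0.10 for the 431 peaks and -0.0031 for all peaks. Below 0 lay 274 of the 431, or 63.6%, beside 50.5% of all peaks. The 3 cadmium and 3 control values did not overlap in 88 peaks, or 20.4%, beside 26.8% of all peaks. Of these, 61 were lower (12.5% of all peaks) and 27 higher (14.4% of all peaks). Samples carry a batch number that is the replicate number, so each batch holds 1 cadmium and 1 control sample. Within batches 1, 2 and 3, the median log2 ratio of the 431 peaks was -0.02, -0.13 and -0.12, and 227, 269 and 272 peaks lay below 0.

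With the batch as a replicate block in the edgeR fit, 20 of the 431 peaks were called, beside 8.48% of all peaks. Of these, 8 were higher (4.65% of all peaks) and 12 lower (3.83% of all peaks). All 11 peaks called without the block were among them, and the others lay in Ddx19b, Ddx21, Ddx5, Dhx34, Rbm27, Rbm46os and Rbm47. The family counts became 11 for Rbm, 7 for Ddx and 2 for Dhx, with 0 for Srsf and Hnrnp. DESeq2 called 26 (9.92% of all peaks), 10 higher (5.48%) and 16 lower (4.44%), again with all 11 among them. The calls rest on all 6 samples: with 1 sample left out, 0 to 7 of the 431 peaks were called. There were 0 without cadmium sample 3 or control sample 3, 4 without cadmium sample 2 or control sample 2, 5 without control sample 1 and 7 without cadmium sample 1. Calls over all peaks also fell in each of these fits, with the range given in the closing section. Each of the 11 kept its direction in every fit that held it, but its call in only 0 to 2 of the 6 fits with 1 sample left out, where adjusted p-values reached 0.203. In the authors' deposited table, 4 of the 431 peaks were marked Up, in Dhx58, Rbm43, Rbm20 and Ddx60, and 0 were marked Down. Every peak marked there had an authors' log2 fold change beyond 1 in size, while 26 of the 431 had an authors' adjusted p below 0.05. For the 11 called peaks the authors' adjusted p-values equalled those of the DESeq2 fit above, so that count and the DESeq2 count are not separate results. Of all peaks there, 2.66% were Up and 4.24% were Up or Down.

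**Figure D1:**
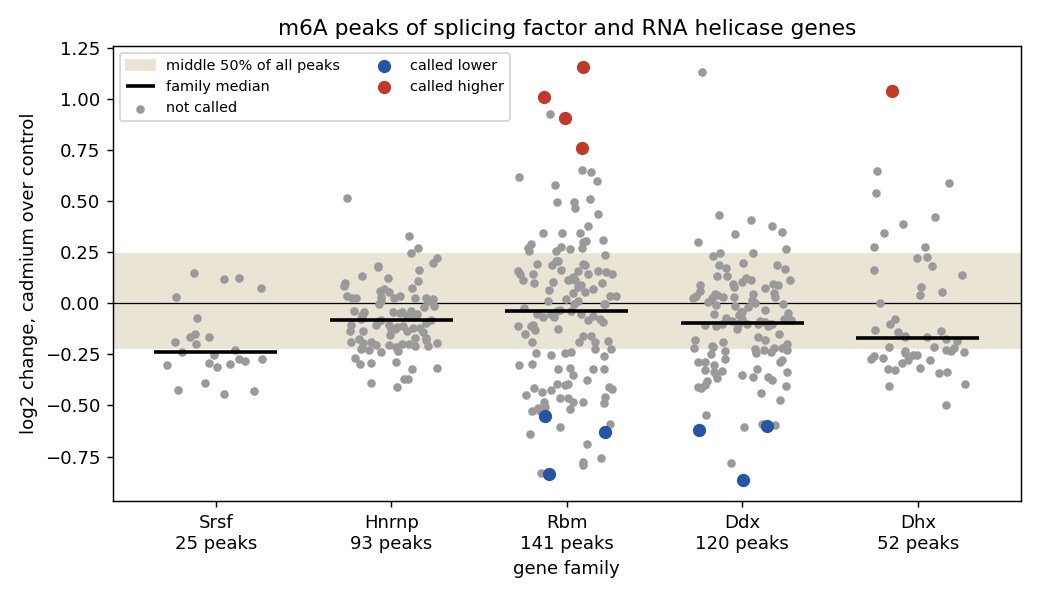
Each point is 1 peak of the splicing factor and RNA helicase genes, placed by its family and its log2 change, cadmium over control. Black lines are family medians, the band holds the middle 50% of all peaks, and the called peaks (red higher, blue lower) occur in the Rbm, Ddx and Dhx families.

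Ddx58 encodes RIG-I, which detects viral double-stranded RNA ends and signals through Mavs. Dhx58 encodes LGP2, which tunes that signal, and Ddx60 encodes a cofactor of it. All 3 genes are known interferon-stimulated genes. Their 5 peaks all had log2 changes above 0, while 50.5% of all peaks lay below 0. The median was 0.41 beside -0.0031 for all peaks. Of the 5, 1 (20.0%) was called, and it was higher, beside 6.27% of all peaks called and 3.55% called higher. These genes were grouped by role after their values were known. The interferon-stimulated response element is a DNA motif found at many interferon-induced genes, and its core was searched as GAAA, NN (any pair of bases) and GAAA on both strands of RefSeq promoter windows (build GRCm38.p6), each from 250 bases before to 50 bases after a gene start. The windows of Ddx58, Ddx60 and Rbm43 are shown because these genes were higher or called higher and held the core, which is in capitals, as its reverse complement in Ddx58 and Rbm43. The window of Dhx58 was not analysed here. Each is printed 5′ to 3′ along its gene, at chr4:40239776-40240075 (minus strand), chr8:61927837-61928136 (plus strand) and chr2:51935114-51935413 (minus strand) in that order.
Ddx58: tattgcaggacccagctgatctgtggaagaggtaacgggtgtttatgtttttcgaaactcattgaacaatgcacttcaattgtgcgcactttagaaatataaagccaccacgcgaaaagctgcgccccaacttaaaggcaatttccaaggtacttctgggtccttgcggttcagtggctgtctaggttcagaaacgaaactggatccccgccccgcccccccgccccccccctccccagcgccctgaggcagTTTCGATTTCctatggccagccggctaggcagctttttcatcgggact
Ddx60: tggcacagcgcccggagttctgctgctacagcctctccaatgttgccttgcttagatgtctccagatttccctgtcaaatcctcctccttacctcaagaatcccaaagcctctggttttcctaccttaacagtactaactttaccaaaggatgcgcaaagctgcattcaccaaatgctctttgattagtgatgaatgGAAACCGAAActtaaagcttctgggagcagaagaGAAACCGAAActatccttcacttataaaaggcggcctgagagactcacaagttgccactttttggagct
Rbm43: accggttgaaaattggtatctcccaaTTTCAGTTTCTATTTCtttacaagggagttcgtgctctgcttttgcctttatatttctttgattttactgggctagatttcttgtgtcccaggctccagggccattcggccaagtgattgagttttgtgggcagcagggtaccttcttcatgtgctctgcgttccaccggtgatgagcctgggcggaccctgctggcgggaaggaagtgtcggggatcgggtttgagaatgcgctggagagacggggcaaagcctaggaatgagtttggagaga

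Ddx60 held 2 separate matches, whose first bases lay 19 and 53 bases before its start. Rbm43 held 2 overlapping matches, 218 and 224 bases before, and Ddx58 held 1 match just past its start. Of the 91 splicing factor and helicase genes with a window, 6 had a match, or 6.59%, beside 3.99% of all 27025 genes with one and 3.44% of all 32851 windows. The other three were Ddx49, Rbm28 and Rbm41, none of which had a called peak. Their most abundant peaks had log2 changes of -0.18, 0.02 and -0.0019, while that of Rbm43 was at 0.65 and not called (edgeR adjusted p = 0.0613). Over all peaks the changes ran from -0.18 to 0.43 in Ddx49, -0.46 to 0.31 in Rbm28 and -0.42 to 0.29 in Rbm41. The Ddx49 peak at 0.43 was higher without overlap. Rbm20 and Rbm46os, which also had peaks called higher, were not among the 6 genes with a match. Motif and genes were chosen after the values were seen, and a match is a run of letters rather than a shown binding site. The windows shown were picked by both value and match, so they cannot show whether values and matches go together.

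The Dhx58 peak (chr11:100694951-100695245, mm10) measured 4.04, 6.31 and 6.03 CPM in the 3 cadmium samples. In control samples 1 to 3 it measured 2.26, 2.75 and 2.99 CPM. Every cadmium sample lay above every control sample. The log2 change was 1.04 ± 0.22 (SE, n = 3 per group), a 2.05-fold rise with an edgeR adjusted p of 0.0213. Ddx60 had 1 peak (chr8:61969563-61969692), which measured 2.34, 1.25 and 1.70 CPM in cadmium and 0.794, 0.876 and 0.725 CPM in control samples. The groups did not overlap, but its log2 difference of 1.13 ± 0.31 missed the threshold (edgeR adjusted p = 0.0563). The largest Ddx58 peak (chr4:40205420-40206075) lay in the last part of the gene and measured 25, 23.0 and 22.3 CPM in cadmium. It measured 18.8, 19.2 and 15 CPM in control samples, so all 3 cadmium values were higher. The log2 difference was 0.41 ± 0.15 (edgeR adjusted p = 0.150). The other two Ddx58 peaks overlapped between groups, at 0.12 and 0.23.

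Genes of the interferon and RNA-sensing pathway outside these families were read by their most abundant peak, the rule used for every pathway list below. By that rule 6.8% of all genes were called, 4.4% higher and 2.4% lower. Of 18 such genes with a peak, 5 were called higher and 0 lower. Values were higher without overlap in 10 (14.4% of all peaks) and lower without overlap in 1 (12.5% of all peaks). The median log2 change was 0.54, and 1 gene lay below 0, beside 50.5% of all peaks. That gene was Mavs, the adaptor to which RIG-I signals, and it was lower without overlap at -0.48 ± 0.15 (edgeR adjusted p = 0.0961). The 3 with the smallest p were Oasl2 at 1.59 ± 0.19, an oligoadenylate synthetase-like protein, and the interferon-induced Ifit2 at 1.24 ± 0.22 and Ifit3 at 0.95 ± 0.19. Their edgeR adjusted p-values were 0.0016, 0.0101 and 0.0159. With 1 sample left out 2 to 7 genes of the list were called: 2 without control or cadmium sample 3 and 3 without cadmium sample 2. Markers of immune cells in the same samples were sparse. The 5 macrophage and Kupffer cell genes with a peak summed to 99.0 to 127 CPM in cadmium and 82.4 to 108 CPM in control samples, with Csf1r called higher and Cd163 called lower. The 2 lymphocyte genes with a peak summed to 2.46 to 3.58 CPM and 1.38 to 2.41 CPM. Their part in these differences was not tested.

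**Figure D2:**
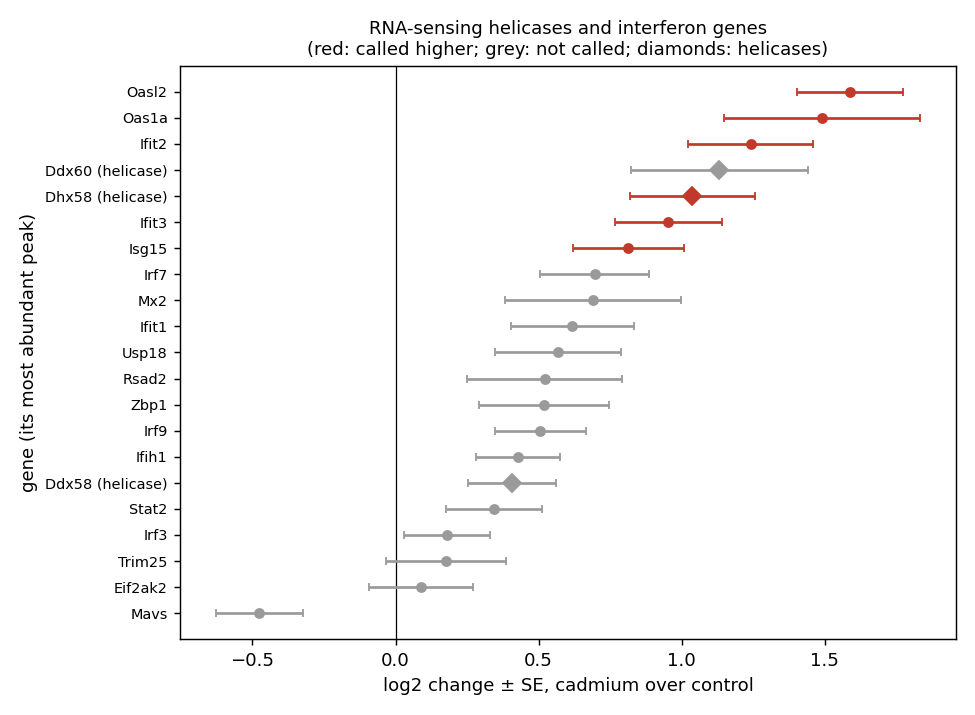
Log2 change with its SE (cadmium over control) of the most abundant peak of each RNA-sensing helicase (diamonds) and of each gene of the interferon and RNA-sensing list. Oasl2 is at the top at 1.59, Dhx58 is called at 1.04, and Mavs is the only gene below 0.

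Helicases and RNA-binding proteins of ribosome biogenesis, a role group made after the values were known, held 71 peaks in 19 genes. Of these, 53 peaks (74.6%) lay below 0, beside 50.5% of all peaks, and the median log2 change was -0.11. Called were 4 of the 71, or 5.63%, beside 6.27% of all peaks, and all 4 were lower (2.72% of all peaks). DESeq2 called 7, beside 9.92% of all peaks, and 10 had an unadjusted edgeR p below 0.05, or 14.1%, beside 21.8% of all peaks. All 4 calls belonged to Ddx21 and Rbm34, and the other genes of the group had none.

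Ddx21 unwinds RNA in the nucleolus, where it acts in rRNA transcription and processing. All 6 of its peaks were lower in every cadmium sample than in any control sample, with log2 changes from -0.87 to -0.60. The peak at chr10:62584552-62584820 measured 3.14, 4.92 and 3.18 CPM in cadmium and 6.52, 7.73 and 6.32 CPM in control samples. Its log2 change was -0.87 ± 0.21 (edgeR adjusted p = 0.0375). The largest peak, at chr10:62598207-62598842 in the first part of the gene, measured 21.8, 23.6 and 22.6 CPM in cadmium. It measured 30.7, 41.3 and 32.5 CPM in control samples. Control sample 2 was the highest of all samples in both peaks. The change was -0.62 ± 0.16 (edgeR adjusted p = 0.0450). Another called peak, at chr10:62594983-62595201, had 5.60, 6.53 and 6.59 CPM against 9.02, 9.38 and 9.97 CPM and a change of -0.60 ± 0.15 (edgeR adjusted p = 0.0455). The other three peaks of Ddx21 had adjusted p-values of 0.0534, 0.0751 and 0.0797. Summed over its peaks, the gene was at 56.1 ± 5.9 CPM in cadmium and 88.7 ± 9.0 CPM in control samples (SD, n = 3), and the log2 change of the sum was -0.66 ± 0.13 (edgeR adjusted p = 0.0141).

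Ddx50, the close paralogue of Ddx21 encoded beside it on chromosome 10, had 5 peaks, all with overlapping groups. Their log2 changes ran from -0.42 to 0.13, and the sum was at -0.30 ± 0.12 (edgeR adjusted p = 0.145). Rbm34, a nucleolar RNA-binding protein, had 5 peaks, with log2 changes from -0.84 to 0.08. The peak at chr8:126949146-126949515, at 91.0% of the gene from its 5′ end, measured 3.29, 2.71 and 2.31 CPM in cadmium and 4.85, 5.18 and 4.78 CPM in control samples. Its control values were close together and all above the cadmium values, and the change was -0.84 ± 0.19 (edgeR adjusted p = 0.0285). The neighbouring peak at 85.1% of the gene was also lower without overlap, at -0.79 (adjusted p = 0.0627). The 3 peaks in the first 23.3% of the gene overlapped between groups, at -0.24, -0.19 and 0.08. The departure of the called peak from the other peaks of Rbm34 did not pass the threshold (edgeR diffSpliceDGE unadjusted p = 0.0631). The sum for Rbm34 was not called, at -0.40 (adjusted p = 0.0821).

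Among the other ribosome biogenesis genes, Ddx27 had 5 of 5 and Ddx18 5 of 5 peaks below 0, with medians of -0.35 and -0.18. Rbm19 had 3 of 3 below 0, from -0.45 to -0.40, and Dhx33 2 of 2, at -0.40 and -0.31. Ddx54, Ddx24 and Ddx10 were spread around 0, with sums at -0.01, -0.07 and -0.04. Above 0 lay 5 of 9 peaks of Rbm28, from -0.46 to 0.31, and 2 of 3 of Ddx49, whose peak at 0.43 was the only one of the group to be higher without overlap. Dhx37 had 3 of 3 peaks below 0, from -0.16 to -0.08, and Ddx52 had 4 of 4. The single peaks of Ddx31, Ddx51, Ddx55 and Ddx56 and both peaks of Ddx47 lay between -0.10 and 0.24, each with overlapping groups. None of these passed the test.

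**Figure D3:**
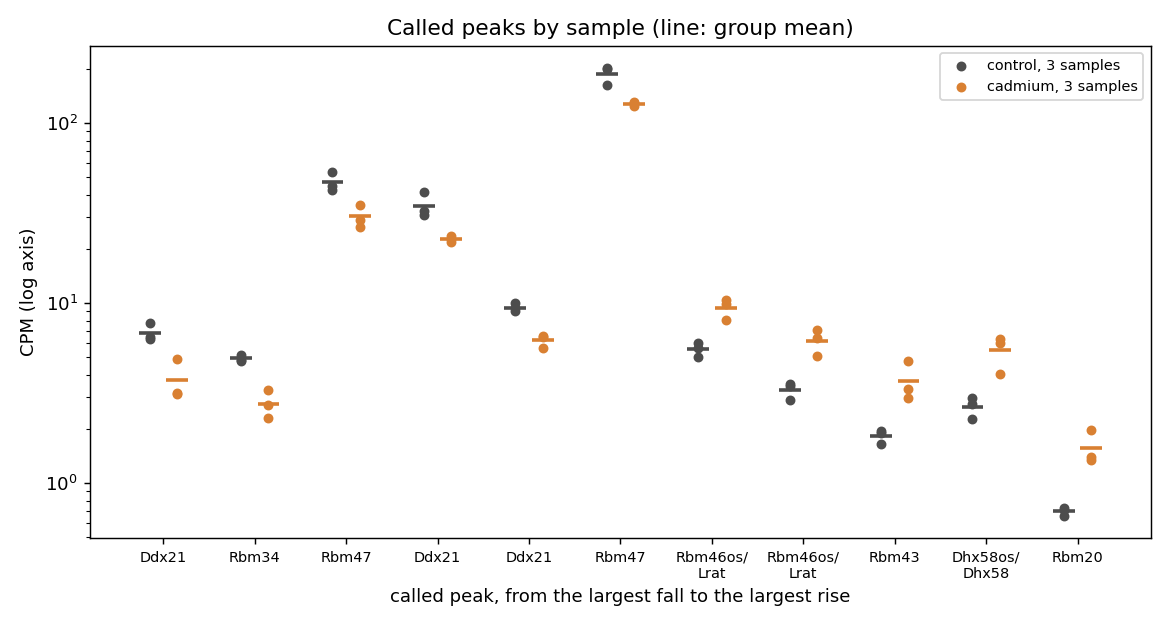
CPM (log axis) of the 11 called peaks in each of the 3 control (grey) and 3 cadmium (orange) samples, with a line at each group mean. The points of the groups do not overlap in any of the 11, and levels run from under 1 CPM (Rbm20, control) to about 202 CPM (Rbm47, control).

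Rbm47 binds RNA in the nucleus, supports Apob mRNA editing as a cofactor of the Apobec1 deaminase, and regulates splicing. Its most abundant peak, at chr5:66026128-66027344, measured 131, 124 and 130 CPM in cadmium. In control samples it measured 163, 200 and 202 CPM. The change was -0.55 ± 0.14, or 1.47-fold lower (edgeR adjusted p = 0.0435). A second called peak, at chr5:66046037-66046259, measured 35.3, 26.6 and 29.2 CPM in cadmium and 44.8, 42.7 and 53.3 CPM in control samples, a change of -0.63 ± 0.16 (edgeR adjusted p = 0.0485). Again all 3 cadmium values were below all control values.

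The estimated log2 changes of the 9 Rbm47 peaks varied along the gene, but no departure of a peak from the others passed adjustment. The 6 peaks between 52.5% and 98.1% of the gene from its 5′ end were all lower without overlap, from -0.63 to -0.47. The 3 peaks in the first 46.1% overlapped between groups and had log2 changes of 0.01, 0.10 and 0.12. Against the other peaks of the gene, these 3 had unadjusted diffSpliceDGE p-values of 0.0183, 0.0105 and 0.0095. Of all peaks compared in this way, 0.966% had an unadjusted p below 0.05. The 3 upstream peaks were small, each at 2.83 to 8.31 CPM in any sample. The sum of Rbm47 was 244 ± 9.5 CPM in cadmium and 356 ± 31.9 CPM in control samples (SD, n = 3), at -0.54 ± 0.12 (edgeR adjusted p = 0.0218).

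No peak of the 395 that could be compared with others of the same gene departed from them at an adjusted p below 0.05, beside 0.0296% of all peaks. The 3 upstream peaks of Rbm47 were the only ones of the 395 with an unadjusted p below 0.05, a share no larger than the 0.966% of all peaks. That 0.966% is itself less than a threshold of 0.05 would pass if no peak departed, so the test was conservative here. The lack of departures therefore does not show that the peaks of a gene moved together. No other tool was run for this question. Peaks of 1 gene come from the same RNA and are no replicates of each other. Of the 64 symbols with at least 3 peaks, 23 had all peaks below 0 (35.9%, beside 31.0% of all genes with that many) and 11 had all above 0 (17.2%, beside 30.2%). In Ddx21 and Ddx3x every peak was lower without overlap, which is 3.12% of the 64 symbols, beside 3.27% of all genes.

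**Figure D4:**
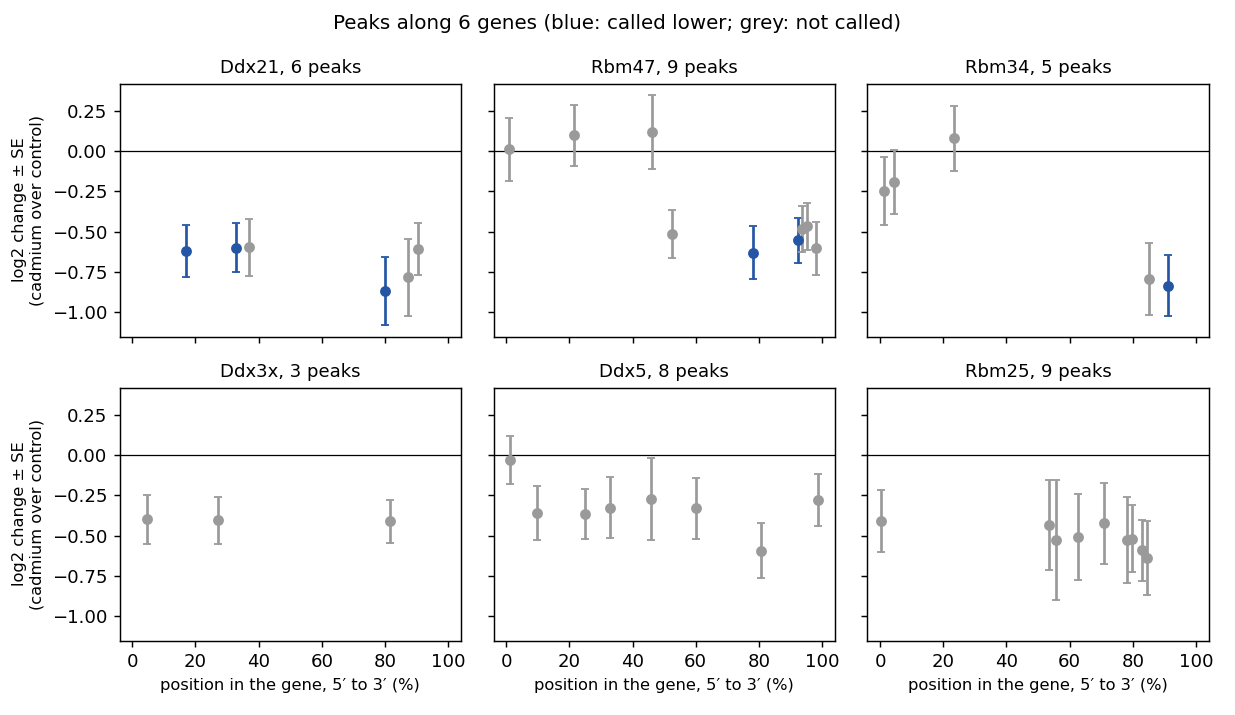
Log2 change with its SE (cadmium over control) of each peak of 6 genes, placed by its position in the gene from 5′ to 3′. Ddx21, Ddx3x, Ddx5 and Rbm25 lie below 0 throughout. In Rbm47 the 3 peaks in the first 46.1% of the gene lie at 0.01 to 0.12 and the rest between -0.63 and -0.47.

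The remaining higher calls lay in Rbm43, Rbm20 and Rbm46os. Rbm43, an RNA-binding protein of little-known function, had 3 peaks near its 3′ end, with log2 changes of 0.65, 0.58 and 1.01. The called one, at chr2:51924496-51924766, measured 3.33, 4.76 and 2.98 CPM in cadmium and 1.96, 1.89 and 1.65 CPM in control samples (1.01 ± 0.23, edgeR adjusted p = 0.0299). Every cadmium value was above the controls, with cadmium sample 2 the highest. Rbm20, known as the splicing regulator of titin in heart muscle, had 3 peaks at 0.50, 1.16 and 0.93. Its called peak, at chr19:53851535-53851640, measured 1.96, 1.34 and 1.39 CPM in cadmium and 0.713, 0.657 and 0.725 CPM in control samples (1.16 ± 0.29, edgeR adjusted p = 0.0420). The groups did not overlap, and the level was low in all 6 samples.

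Rbm46os had 5 peaks, all above 0 and all also assigned to Lrat. The peak at chr3:82893800-82893910 measured 5.08, 6.38 and 7.07 CPM in cadmium and 3.54, 2.89 and 3.47 CPM in control samples (0.91 ± 0.19, edgeR adjusted p = 0.0208). The peak at chr3:82895171-82895367 measured 10.4, 8.05 and 9.86 CPM in cadmium and 6.03, 5.62 and 5.03 CPM in control samples (0.76 ± 0.17, edgeR adjusted p = 0.0253). In both peaks all cadmium values were above all control values. Lrat is a stellate cell marker. The 7 stellate cell and fibroblast markers, Lrat among them, all lay above 0 and summed to 129 to 156 CPM in cadmium and 81.1 to 105 CPM in control samples, with 2 called higher, Col1a1 at 2.26 and Col3a1 at 1.91. Their part in the Rbm46os values was not tested. Without the Rbm46os peaks, a count added after seeing the data, 9 of the remaining peaks were called.

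The spliceosome helicases and their partners held 106 peaks in 18 genes, and edgeR called 0, beside 6.27% of all peaks. An unadjusted edgeR p below 0.05 was seen for 8, or 7.55%, beside 21.8% of all peaks. DESeq2 called 1 (in Ddx5), beside 9.92% of all peaks. The median log2 change was -0.04, and 59 peaks (55.7%) lay below 0, beside 50.5% of all peaks. Ddx5, a helicase that remodels splice sites and microRNA precursors, had 8 of 8 peaks below 0. Its most abundant peak measured 70.6, 52.6 and 52 CPM in cadmium and 86.2, 101 and 76.8 CPM in control samples, without overlap. That difference was -0.59 ± 0.17 with an adjusted p of 0.0691 by edgeR, 0.0481 with the replicate block and 0.0191 by DESeq2. Its paralogue Ddx17 had 4 of 8 peaks below 0 and a sum at 0.01 ± 0.20. Rbm25, a regulator of 5′ splice sites, had 9 of 9 below 0, from -0.64 to -0.41, with wide spread between samples. Its most abundant peak measured 9.32, 11.5 and 7.49 CPM in cadmium and 8.74, 17.4 and 11.9 CPM in control samples, with control sample 2 the highest and the groups overlapping.

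Dhx38, which acts in the catalytic spliceosome, had 11 of 11 peaks below 0, from -0.34 to -0.10, all with overlapping groups. Dhx15, which takes the spliceosome apart, had 2 of 2 below 0, at -0.34 and -0.27. Rbm5, a regulator of apoptosis genes' splicing, had 7 of 7 peaks above 0, from 0.14 to 0.51. Rbm39, a U2AF-related factor, had 6 of 7 above 0 with a sum at 0.11 ± 0.16. Ddx46, of the early spliceosome, had 9 of 12 and Rbm17 6 of 8 above 0, while Ddx23 had 6 of 7 and Rbm10 3 of 3 below 0. None of these passed the test. Dhx8, which releases mRNA from the spliceosome, had 4 of 6 peaks below 0, from -0.26 to 0.18, and Dhx16 had 2 of 2 above 0, at 0.14 and 0.28. Ddx39b, the UAP56 helicase of early spliceosome assembly and mRNA export, had 1 peak, which measured 9.46, 8.19 and 8.05 CPM in cadmium and 6.15, 7.39 and 7.84 CPM in control samples. The groups did not overlap, by a small margin, and the log2 difference was 0.27 ± 0.16 (edgeR adjusted p = 0.384). Its close paralogue Ddx39 had 1 peak at 0.34 with overlapping groups. Ddx41 and Ddx42 lay between -0.13 and 0.17, and Rbm22 was at -0.05, all with overlapping groups.

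The export, translation and decay group held 30 peaks in 10 genes, with a median log2 change of -0.24. Of the 30 peaks, 24 (80.0%) were below 0, beside 50.5% of all peaks. EdgeR called 0 at the adjusted threshold (6.27% of all peaks), and DESeq2 called 2, in Ddx19b and Dhx34 (9.92% of all peaks). An unadjusted edgeR p below 0.05 was seen for 8, or 26.7%, beside 21.8% of all peaks. Of the 30 peaks, 13 were lower without overlap (12.5% of all peaks) and 1 was higher (14.4%). Ddx3x, an X-linked helicase that promotes translation of structured mRNA, had 3 peaks along the gene, at -0.40, -0.41 and -0.41, and all 3 were lower without overlap. The most abundant, at chrX:13291184-13291792, measured 71.0, 72.0 and 72.6 CPM in cadmium and 103, 90.3 and 93.5 CPM in control samples (-0.41 ± 0.13, edgeR adjusted p = 0.0980). The cadmium values lay close together and below every control value. Ddx6, a decay and translation repressor of P-bodies, had 7 of 7 peaks below 0, from -0.30 to -0.11, with 3 lower without overlap. Its most abundant peak measured 145, 151 and 148 CPM in cadmium and 157, 199 and 150 CPM in control samples, with control sample 3 inside the cadmium range.

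Ddx19b, a helicase that releases mRNA at the nuclear pore, had 3 of 3 peaks below 0. Its most abundant peak measured 13.1, 15.7 and 13.8 CPM in cadmium and 18.3, 23.4 and 20.7 CPM in control samples, without overlap, at -0.55 ± 0.16 (edgeR adjusted p = 0.0652, or 0.0364 with the replicate block). Its near-identical neighbour Ddx19a had 2 of 2 lower without overlap, at -0.23 and -0.16, and reads may be divided between both copies. Dhx34, which works in nonsense-mediated decay, lay above 0. Its larger peak measured 15.6, 17.7 and 16.8 CPM in cadmium and 9.90, 12.0 and 12.6 CPM in control samples, without overlap, at 0.54 ± 0.15 (edgeR adjusted p = 0.0664, or 0.0434 with the replicate block).

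In the Srsf family 20 of 25 peaks (80.0%) lay below 0, beside 50.5% of all peaks, with a median of -0.24. EdgeR called 0 (6.27% of all peaks) and DESeq2 called 0 (9.92% of all peaks). At an unadjusted edgeR p below 0.05 there were 3, or 12.0%, beside 21.8% of all peaks. These lay in Srsf10, Srsf9 and Srsf4. In batches 1, 2 and 3 the Srsf median was -0.09, -0.28 and -0.20. Srsf5, an SR protein, had 4 of 4 peaks above 0. It also gave the most abundant Srsf peak, with 138, 103 and 109 CPM in cadmium and 116, 99.8 and 99.8 CPM in control samples, which overlapped (0.15 ± 0.16). Srsf4, a long SR protein, had 4 of 4 peaks below 0, from -0.42 to -0.29. Its largest peak, also assigned to Gm12992, measured 61.9, 81.4 and 71.9 CPM in cadmium samples. In control samples it measured 86.1, 99.9 and 77.4 CPM, with 1 control value inside the cadmium range. Srsf6 had 5 of 5 and Srsf1, Srsf2, Srsf9 and Srsf10 2 of 2 peaks below 0. The sums were lowest for Srsf10, a splicing repressor activated by dephosphorylation, at -0.40 ± 0.18, and for Srsf4, at -0.33 ± 0.13, and neither was called. The single Srsf7 peak was at -0.20 ± 0.21, and Srsf11 had peaks at -0.26, -0.17 and 0.03.

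Levels were set side by side per kilobase of peak. The median over peaks of the mean level was 49.8 CPM per kb for Srsf and 57.8 for Hnrnp, beside 21.9 for Rbm, 32.4 for Ddx, 23.9 for Dhx and 29.2 for all peaks. On that scale the most abundant peak of Ddx5 stood at 204 CPM per kb, those of Srsf2 at 196 and Srsf5 at 184, and those of Hnrnpab, Hnrnpk, Hnrnpf and Hnrnpu at 179, 176, 172 and 171. The Srsf2 peak was also assigned to Mettl23 and Mfsd11.

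In the Hnrnp family 64 of 93 peaks (68.8%) lay below 0, beside 50.5% of all peaks, with a median of -0.08. EdgeR called 0 (6.27% of all peaks) and DESeq2 called 0 (9.92% of all peaks). At an unadjusted edgeR p below 0.05 there were 5, or 5.38%, beside 21.8% of all peaks. These lay in Hnrnpr, Hnrnpab and Hnrnpf. The most abundant peak of Hnrnpu, a nuclear matrix protein, measured 142, 109 and 139 CPM in cadmium and 143, 124 and 157 CPM in control samples (-0.12 ± 0.16). That of Hnrnpk measured 46.9, 35.8 and 41.8 CPM in cadmium and 48.1, 43.7 and 49.0 CPM in control samples (-0.18 ± 0.15). Both pairs of groups overlapped. Those of Hnrnpa0, Hnrnpa1, Hnrnpa3, Hnrnpd, Hnrnpl and Hnrnpul1 lay between -0.06 and 0.16, each with overlapping groups.

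Across the peaks of a gene, Hnrnpm had 13 of 14, Hnrnpu 10 of 11, Hnrnpul2 8 of 9, Hnrnpk 7 of 8 and Hnrnpd 7 of 8 below 0. Hnrnpul1 and Hnrnpdl had 7 of 7 above 0, with medians of 0.06 and 0.03. Hnrnpf had 4 of 4 below 0 with 3 non-overlapping, from -0.41 to -0.19, and Hnrnpab 3 of 3 with 2 non-overlapping, from -0.39 to -0.21. Hnrnph1, Hnrnph2 and Hnrnph3, relatives of Hnrnpf, had all 6 peaks below 0, from -0.30 to -0.06. Both peaks of Hnrnph2 were lower without overlap. Hnrnpll had peaks at -0.12 and 0.03. Hnrnpr lay above 0. Its larger peak measured 23.6, 23.4 and 24.3 CPM in cadmium and 18.0, 17.9 and 21.0 CPM in control samples, without overlap (0.33 ± 0.14, edgeR adjusted p = 0.210). Its sum was at 0.34 ± 0.12 and not called.

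In the Rbm family log2 changes ran from -0.84 to 1.16, and 76 of 141 (53.9%) lay below 0, beside 50.5% of all peaks. The family had 7 called peaks (4 higher and 3 lower), or 4.96%, beside 6.27% of all peaks. Its median of -0.04 ran from -0.08 to 0.00 over the other fits and samples left out, while the Srsf median ran from -0.28 to -0.17, Hnrnp from -0.12 to -0.07, Ddx from -0.12 to -0.06 and Dhx from -0.22 to -0.11. Rbm27 had 10 of 10 peaks below 0, of which 5 were lower without overlap, at -0.83 to -0.48. The one at -0.69 had an edgeR adjusted p of 0.0779, or 0.0418 with the replicate block. Its other 5 overlapped between groups, at -0.40 to -0.02. Rbm12b1 and Rbm12b2, near-identical neighbours between which reads may be divided, each had 2 of 2 above 0. Rbm26, a paralogue of Rbm27, had 8 of 12 below 0, from -0.49 to 0.12, all overlapping. Rbm33 had 5 of 13 below 0, from -0.32 to 0.19, and these overlapped too. Rbm6, a splicing regulator beside Rbm5, had 6 of 8 above 0, with 1 peak higher without overlap and a maximum of 0.50. Rbm8a, the Y14 subunit of the exon junction complex, had 3 of 3 below 0, from -0.30 to -0.24, and 1 of them did not overlap. Rbm4 and Rbm4b, near-identical copies, had all 5 peaks below 0, between -0.19 and -0.08. Rbm14, a paraspeckle protein, had peaks at -0.40 and -0.05, and those of Rbm42 were at -0.04 and -0.0030. The peaks of Rbm7, Rbm12, Rbm18, Rbm45 and Rbm48 lay between -0.38 and 0.15, all overlapping.

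The Ddx family had 3 called peaks (2.5%), all of Ddx21, and 79 of 120 (65.8%) below 0. The Dhx family had 35 of 52 (67.3%) below 0 and 1 call (1.92%), that of Dhx58. Of all peaks, 6.27% were called and 50.5% lay below 0. Dhx9, a helicase of double-stranded RNA and of RNA-DNA hybrids, had 4 of 4 peaks below 0. Its most abundant peak measured 17.3, 22.5 and 19.9 CPM in cadmium and 22.0, 24.4 and 20.5 CPM in control samples, which overlapped (-0.16 ± 0.16). Dhx36, which unwinds G-quadruplexes, had 3 of 4 below 0, and its most abundant peak overlapped as well, at -0.17 ± 0.17. Dhx29, a translation initiation helicase, had 3 of 3 below 0, from -0.50 to -0.23, with 2 lower without overlap. Dhx57 had 4 of 4 above 0, from 0.22 to 0.59, with 2 higher without overlap, and Dhx40 had 3 of 3 above 0, from 0.22 to 0.35, all overlapping. The most abundant peaks of Dhx30, a helicase of mitochondrial ribosome assembly, and of Dhx32 lay at -0.23 ± 0.19 and -0.22 ± 0.16, also with overlap. That of Dhx32 was also assigned to Bccip. Ddx20, the Gemin3 subunit of the SMN complex, had 1 peak, lower without overlap at -0.34. Both peaks of Ddx1 were above 0, at 0.11 and 0.19, and the peaks of Ddx11, Ddx28 and Ddx59 ran from -0.33 to 0.35. None of these was called.

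Counts summed over all peaks of a gene were fitted in the same way. By that measure 11 of the 106 symbols were called, beside 10.2% of all genes. The 4 called lower (4.17% of all genes) were Ddx21, Rbm47, Ddx19b at -0.50 ± 0.12 and Ddx3x at -0.43 ± 0.11, with edgeR adjusted p-values of 0.0335 and 0.0417 for Ddx19b and Ddx3x. The 7 called higher (5.98% of all genes) were Ddx60 at 1.11 ± 0.30, Rbm20 at 0.81 ± 0.21, Rbm43 at 0.72 ± 0.17, Rbm46os at 0.58 ± 0.14, Dhx34 at 0.53 ± 0.14 and the single peak that stands for both Dhx58 and Dhx58os. Of the 106 sums, 69 lay below 0.

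**Figure D5:**
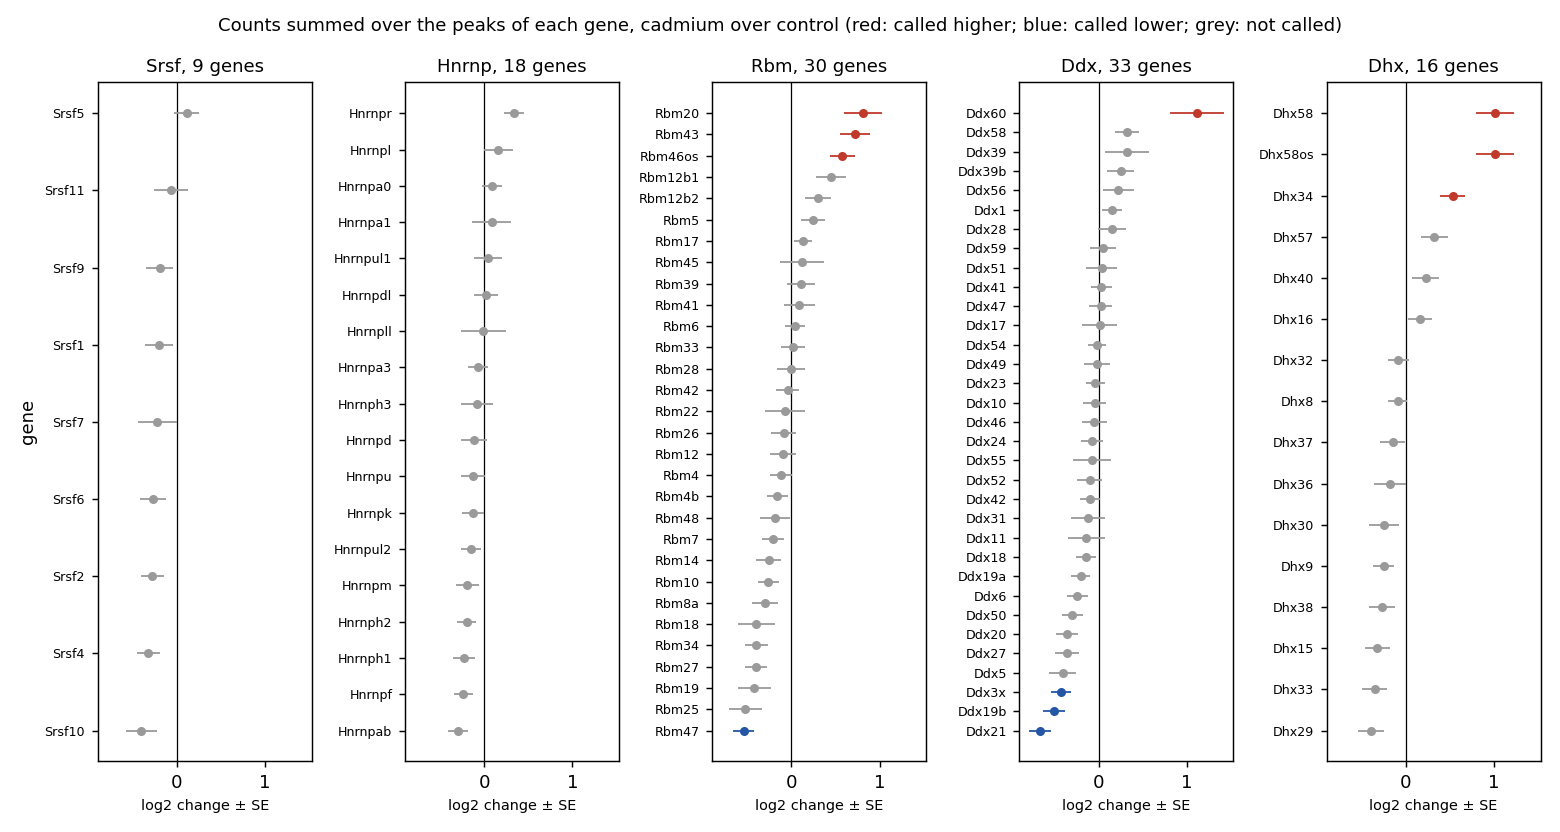
Log2 change with its SE (cadmium over control) of the counts summed over all peaks of each gene, by family. Called genes are red (higher) or blue (lower), and no Srsf or Hnrnp gene is called.

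Within the genes, 368 of the peaks could be placed along a RefSeq gene of known strand. Of these, 22.0% lay in the last 10% of the gene span, beside 32.7% of all placed peaks, and 15.8% lay in the first 10%, beside 12.7%. The share in the last 10% was 33.3% for Dhx, 25.2% for Ddx, 20.0% for Srsf, 18.5% for Hnrnp and 18.3% for Rbm. Overlap with a promoter window was seen for 24 peaks in 22 genes, with a median log2 change of -0.06. None of the 24 was called by edgeR (6.27% of all peaks) or DESeq2 (9.92% of all peaks). An unadjusted edgeR p below 0.05 was seen for 1 (21.8% of all peaks).

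Other genes of the splicing machinery were read in the same way, beside 6.8% of all genes called. Of all peaks, 21.8% had an unadjusted edgeR p below 0.05 and 50.5% lay below 0. DESeq2 called 9.92% of all peaks, and edgeR with the replicate block called 8.48%. Of 33 U1 and U2 snRNP genes with a peak, 0 were called by edgeR or DESeq2 and 0 had an unadjusted edgeR p below 0.05, and 24 lay below 0 with a median of -0.15. Of 36 genes of the tri-snRNP and Prp19 complexes, 1 was called higher, the helicase Aqr at 0.89, and 1 lower, Usp39 at -0.64, and 6 had an unadjusted edgeR p below 0.05. Of 50 splicing regulators of other families, 1 was called lower, Sfpq at -0.86 (edgeR adjusted p = 0.0128), a paraspeckle protein, and 0 higher, and 5 had an unadjusted edgeR p below 0.05. Of 20 RNA helicases of other names, 2 were called higher, Aqr and the antiviral helicase Mov10 at 0.82, and 0 lower. In this list 9 genes had an unadjusted edgeR p below 0.05, 6 of the 20 lay below 0, and 3 were called with the replicate block. Each of these lists had 0 calls without cadmium sample 3 or control sample 3. The tri-snRNP and Prp19 list also had 0 without control sample 1 or 2 or cadmium sample 1, and 1 without cadmium sample 2. The helicase list had 0 without control sample 2 or cadmium sample 1 and 1 without control sample 1. The 12 SR protein kinases and importers and the 23 genes of mRNA export and nonsense-mediated decay with a peak had 0 calls by edgeR or DESeq2, and 1 gene of each had an unadjusted edgeR p below 0.05.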

How the data were processed

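The submitters' processing notes name build mm10 and MACS2 2.1.1. They also list STAR 2.7.1a, cutadapt 1.1.8 and SAMtools 1.3.1, and give DESeq2 the version 4.1.0, with no role or setting for any. The authors' deposited table gives 37118 peaks with raw counts in 6 samples, which were not normalised as far as the values show. It also gives the authors' log2 fold change, p-value and adjusted p-value, used here only where the deposited table is named. The labels describe 12 libraries, and the 6 count columns carry library numbers that immunoprecipitated and input libraries share.

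Counts were filtered with filterByExpr (minimum count 10, minimum total 15), scaled by TMM and fitted with edgeR 4.0.16 in R 4.3.3 (glmQLFit and glmQLFTest, 3 against 3, no covariate), with Benjamini-Hochberg adjustment over 37088 peaks. The biological coefficient of variation was 19.4%. Within-gene departures used diffSpliceDGE over the peaks of one annotation string. Gene sums added the counts of all peaks of a symbol (13050 tested) and have library sizes and CPM of their own. The scripts were tested on simulated data. Replicates of a group differed by more than counting error (chi-square per degree of freedom 31.9 to 161).

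The labels call the replicate number batch, so the numbers pair the samples. Same-numbered samples deviated together from their groups (r = 0.160, 0.232 and 0.196 across peaks), and other pairs gave r from -0.190 to 0.017. Ratios within a batch used CPM plus 0.01.

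Named genes are those with a called peak, the 3 genes per family with the most abundant peak, and a fixed set of well-known regulators by their most abundant peak. Further genes were named after their values were seen. The members, the pathway and marker lists and the role groups were chosen with earlier results of these data known. Of the 106 symbols, 105 were found in RefSeq (GRCm38.p6), and 429 peaks overlapped their gene. Alternatives were DESeq2 1.42.0, RLE scaling, no count filter, the replicate block, single-symbol peaks, gene sums and each sample left out. One gene of the interferon and RNA-sensing list was left out of it and is not reported here. Exon and UTR positions and peak sequences were not analysed here.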

Additional observations from a re-analysis of the deposited data

How the results depend on the processing

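The 11 calls among the splicing factor and helicase peaks were the same peaks under RLE scaling and with no count filter. With DESeq2 there were 26 (10 higher, 16 lower; Rbm 16, Ddx 8, Dhx 2), beside 3683 of all peaks (2035 higher, 1648 lower) in place of 2325, and 2 splicing regulators of other families in place of 1. With the replicate block there were 20 (8 higher, 12 lower; Rbm 11, Ddx 7, Dhx 2), and 19 within-gene departures over all peaks in place of 9. With single-symbol peaks there were 9 (3 higher, Dhx 0), 8 of the 11 and Ddx60, since the called Dhx58 and Rbm46os peaks carry other symbols. On gene sums the counts were 4 for Rbm and 3 for Dhx. With 1 sample left out, the counts ranged from 0 to 7 (higher 0 to 4, lower 0 to 4, Rbm 0 to 5, Ddx 0 to 3, Dhx 0 to 1). Over all peaks they ranged from 543 to 1976 (higher 282 to 986, lower 261 to 1001). The tri-snRNP and Prp19 list ranged from 0 to 1, other helicases from 0 to 2, splicing regulators from 0 to 1, and the interferon list from 2 to 7. Departures over all peaks ranged from 4 to 15. Some uncalled peaks near 0 changed sign with 1 sample left out. Their lowest and highest log2 changes were -0.064 and 0.31 for Hnrnpa1 (below 0 without control or cadmium sample 1), -0.15 and 0.013 for Hnrnpa3 (above 0 without control sample 2) and -0.12 and 0.084 for Hnrnpd (above 0 without control sample 1 or cadmium sample 1 or 3). They were -0.049 and 0.16 for Hnrnpul1 (below 0 without control sample 2 or cadmium sample 3), -0.040 and 0.23 for Rbm39 (below 0 without control sample 2) and -0.14 and 0.25 for Srsf11 (below 0 without control sample 1). The cause was not tested. With 3 samples a group and this spread, an uncalled peak is not shown to be unchanged.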
